A study of Mus musculus and unidentified plasmid with 60 samples.

Results

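Btg2, Dusp1 and Gadd45b are genes that neurons switch on within minutes to hours of activity, and their products act back on growth, signalling and stress pathways. Btg2 belongs to the BTG/Tob family of antiproliferative proteins, which link transcripts to the deadenylation machinery. Dusp1, also known as Mkp1, encodes a nuclear dual-specificity phosphatase that switches off MAP kinases, the enzymes that relay activity signals to the nucleus. Gadd45b, also known as Myd118, encodes a small stress-response protein that takes part in kinase signalling and, in mouse neurons, in activity-dependent DNA demethylation. RFX proteins are transcription factors that recognise X-box sequences, an inverted repeat of a short core. A dominant-negative RFX protein (RFX-DN) interferes with the native factors. The ChIP-seq lists described here give regions reported for such a protein after 1 h of depolarization (1 h) and without it (0 h). A list titled WT stands beside them.

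The members are the listed regions that overlap 1 window around each gene, in mouse build mm9. The windows were chosen by gene, with the presence, width and replicate support of regions in these same lists already known. All counts below are therefore descriptions, and none was tested. The Btg2 window spans 50 kb (chr1:135950000-136000000), the Dusp1 window 45 kb (chr17:26620000-26665000) and the Gadd45b window 45 kb (chr10:80370000-80415000). Together they held 50 of the 295409 regions of the 3 lists. Of these, 27 came from the 122135 regions of the 1 h list and 23 from the 173231 regions of the 0 h list. None of the 43 WT regions lay in a window.

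The series comprises 60 samples, from mouse neurons or of plasmid DNA, most of them reporter libraries, and 6 of its 8 ChIP-seq libraries underlie the 3 lists, with 2 libraries to a list. The 1 h group is RFX-DN cortical neurons depolarized with 55 mM KCl for 1 h on day in vitro (DIV) 7. The 0 h group is RFX-DN neurons that received no depolarization. Both groups were grown from E16 CD-1 embryos and carried the construct by lentivirus from DIV 2. On DIV 6 both were put to overnight silencing by tetrodotoxin together with a blocker of NMDA receptors. Chromatin was precipitated with an antibody to the MYC tag. The group titled WT comes from the same kind of culture, and its labels give no treatment. Whether the WT neurons carried the construct is unclear from the labels. The lists hold no expression values, so the neuronal identity of the cultures could not be checked, and depth is unknown. The labels do not say whether libraries of the same group derive from separate cultures.

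Each listed region has a start, an end and a centre in 1 or both of 2 columns, which were read as 2 replicates. No height, fold or score accompanies a region, so presence, width and column support are the measurements. A region is called shared, or said to have a counterpart, when it overlaps a region of the other time by at least 1 base.

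The starts of the 3 genes are shown because activity acts on many such genes through a promoter element that can be looked for in them. This is the cAMP response element (CRE), TGACGTCA, the site of the transcription factor CREB. The sequences are RefSeq promoters of build GRCm38.p6, from 250 bases before the gene start to 50 after it, written 5′ to 3′ on the gene's strand. That build differs from the mm9 of the lists, so these coordinates cannot be set against the regions, and which region covers a promoter was not determined. Capitals mark every CRE and every CRE core (TGACG or its complement CGTCA).
Btg2 (chr1:134079106-134079405, minus strand): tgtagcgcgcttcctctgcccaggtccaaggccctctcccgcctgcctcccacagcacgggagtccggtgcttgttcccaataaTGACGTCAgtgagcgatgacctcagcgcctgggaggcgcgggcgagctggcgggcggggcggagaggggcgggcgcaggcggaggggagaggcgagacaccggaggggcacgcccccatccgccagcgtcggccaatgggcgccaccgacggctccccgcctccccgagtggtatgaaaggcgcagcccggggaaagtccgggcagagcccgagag
Dusp1 (chr17:26508423-26508722, minus strand): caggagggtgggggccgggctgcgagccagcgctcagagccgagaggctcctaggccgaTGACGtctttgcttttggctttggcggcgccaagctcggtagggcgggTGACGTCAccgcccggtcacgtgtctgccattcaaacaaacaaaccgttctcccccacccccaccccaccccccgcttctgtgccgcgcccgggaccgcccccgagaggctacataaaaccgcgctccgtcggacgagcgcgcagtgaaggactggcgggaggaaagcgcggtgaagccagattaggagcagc
Gadd45b (chr10:80929841-80930140, plus strand): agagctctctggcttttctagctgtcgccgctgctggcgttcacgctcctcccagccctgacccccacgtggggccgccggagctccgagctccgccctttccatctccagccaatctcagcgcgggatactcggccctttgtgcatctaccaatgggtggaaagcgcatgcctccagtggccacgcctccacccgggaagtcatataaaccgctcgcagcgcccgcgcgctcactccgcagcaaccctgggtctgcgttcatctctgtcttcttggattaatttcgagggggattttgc

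The Btg2 promoter held 1 full CRE, at bases 85 to 92 of the 300 shown. The Dusp1 promoter held 1 full CRE, at bases 108 to 115, and a lone CRE core at bases 60 to 64. The Gadd45b promoter held neither. Of all 32851 promoters in the RefSeq table, 1.79% held a full CRE and 20.8% at least a CRE core, the full sites included. The X-box core (GTTGCC or its complement GGCAAC) was in none of the 3 promoters and in 12.5% of all promoters. All motifs were sought on both strands, and a match of letters is a description, not a bound site. In the GRCm38 annotation the nearest protein-coding neighbours are Fmod and Chit1 for Btg2, Neurl1b and Ergic1 for Dusp1, and Lmnb2 and Gng7 for Gadd45b. In that annotation the stretch from Lmnb2 to Gng7 is shorter than the 45 kb of the Gadd45b window. By those distances a window of 45 kb that holds Gadd45b must reach into a neighbouring gene. The stretches around Btg2 and Dusp1 are longer than their windows, but where each window lies in them was not determined. The regions are therefore those of a window, and none was assigned to a gene.

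The first comparison asked how many RFX-DN regions each gene window held after 1 h of depolarization and in silenced neurons. The Btg2 window held 12 regions at 1 h and 9 at 0 h. The Dusp1 window held 9 regions at 1 h and 7 at 0 h. The Gadd45b window held 6 at 1 h and 7 at 0 h. The Btg2 and Dusp1 windows thus had more regions at 1 h, whereas the lists as a whole had fewer. In the Btg2 and in the Gadd45b window, 1 region at 0 h was listed as 2 at 1 h, so a count of regions is not a count of sites. On chromosomes 1, 17 and 10, which carry the 3 genes, the ratio of 1 h to 0 h regions was 0.703, 0.706 and 0.722.

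Consecutive tiles of the window's own length give the background for these counts. Of the 45787 tiles of 50 kb that held any region, 0.0764% held at least as many 1 h regions as the Btg2 window and 4.82% at least as many 0 h regions. The median tile held 2 regions at 1 h and 3 at 0 h. A 1 h number exceeding the 0 h number by 3 or more was seen in 29 tiles, or 0.0633%. The tiles were not matched to the windows for number of regions, and most held fewer regions than the Btg2 window at either time. These shares thus do not compare the windows with places of like density. The Btg2 window coincides with 1 of these tiles. For Dusp1, 0.568% of the 49839 tiles of 45 kb had at least as many 1 h regions and 10.9% at least as many 0 h regions. An excess at 1 h at least as large was seen in 0.476%. For Gadd45b the shares were 6.78% and 10.9%, and 70.9% of tiles had a difference of -1 or higher. Since the windows were picked with these lists in view, nothing is read from their place among the tiles.

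**Figure D1:**
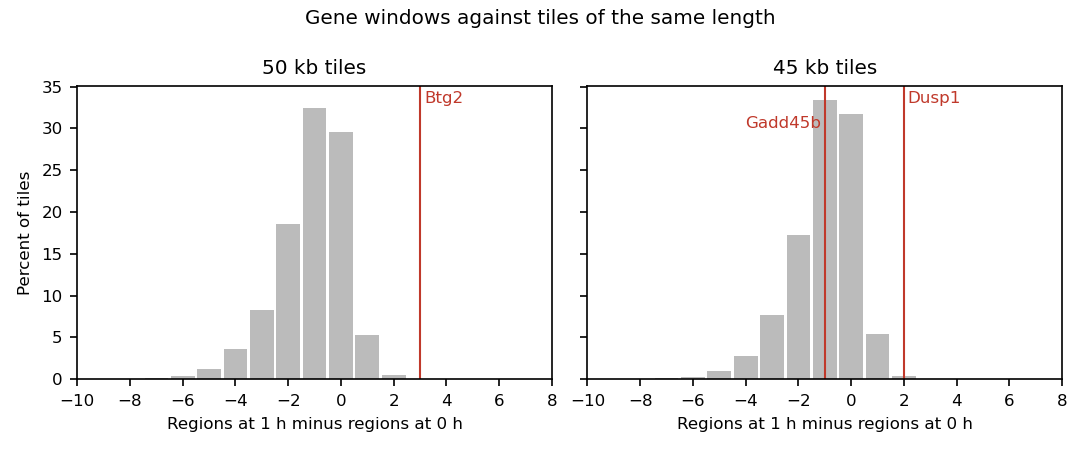
Number of regions at 1 h minus the number at 0 h in consecutive tiles of 50 kb (left) and 45 kb (right) that hold any region. Bars give the percent of tiles and red lines mark the gene windows, with Btg2 at 3, Dusp1 at 2 and Gadd45b at -1.

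The 2 replicate columns give a value each. A combined region holds at most 1 centre per column, so these values follow how each list was cut into regions. They are not independent counts of peaks per replicate, and the SDs below do not measure replicate error. In the Btg2 window the columns of the 1 h list held 12 and 10 centres, against 7 and 8 in the columns of the 0 h list. Both 1 h columns thus lay above both 0 h columns, with means of 11.0 ± 1.41 at 1 h and 7.5 ± 0.707 at 0 h (SD, n = 2 columns each). In the Dusp1 window the 1 h columns held 9 and 5 centres, against 7 and 7 at 0 h. These groups overlapped, with means of 7.0 ± 2.83 at 1 h and 7.0 ± 0 at 0 h (SD, n = 2 columns each). In the Gadd45b window the 1 h columns held 5 and 4 centres, against 6 and 5 at 0 h. Those groups met at 5 centres, with means of 4.5 ± 0.707 at 1 h and 5.5 ± 0.707 at 0 h (SD, n = 2 columns each). The columns name no library, so the first column of one list need not match the first of the other.

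**Figure D2:**
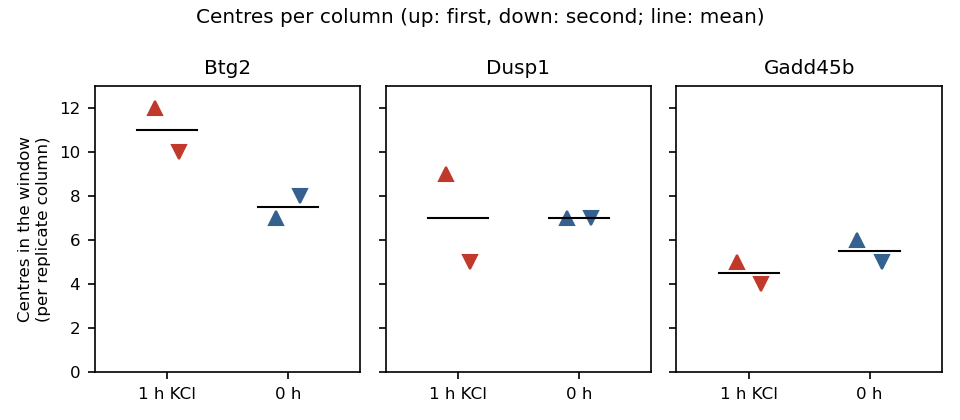
Number of centres in each gene window, per replicate column, at 1 h KCl (red) and 0 h (blue). Upward triangles are first columns, downward triangles second columns, and lines are means of the 2 columns; the Btg2 columns separate by time, while the Dusp1 columns overlap.

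The excess of regions at 1 h rested on different support in the 2 windows. In the Btg2 window 10 regions at 1 h and 6 at 0 h had centres in both columns, a larger excess than over all regions. Part of it is not added sites. A both-column region at 0 h was listed as 2 at 1 h, and the regions at 135970370 and 135989500 had 0 h counterparts with 1 centre. Of 38850 tiles of 50 kb with a both-column region, 0.00257% had an excess of 4 or more, which is the Btg2 window alone. The highest other tile had an excess of 3. This window was picked with the column support of these lists in view, so nothing is read from its place among the tiles. In the Dusp1 window 5 regions at 1 h and 7 at 0 h had centres in both columns, which turned the direction. The other 4 Dusp1 regions at 1 h had a first-column centre only. In the Gadd45b window centres in both columns were held by 3 regions at 1 h and by 4 at 0 h. Over the 3 windows the share with both centres was 66.7% at 1 h (18 of 27, 95% exact Clopper-Pearson interval 46.0% to 83.5%), against 54.8% of the whole 1 h list. At 0 h it was 73.9% (17 of 23, interval 51.6% to 89.8%), against 61.0% of the whole 0 h list. Such intervals, here and below, cover counting error only. They treat regions of the same windows and libraries as independent, in windows picked with these lists in view. They are therefore no test against the whole lists.

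Regions listed at 1 h with no counterpart at 0 h made up 8 of the 27 (29.6%, exact interval 13.8% to 50.2%). In the whole 1 h list this share was 6.69%, and it was 6.69%, 6.69% and 7.13% on chromosomes 1, 17 and 10. The Btg2 window held 3 such regions, the Dusp1 window 4 and the Gadd45b window 1. At least 3 were found in 0.133% of the tiles of 50 kb. Of the tiles of 45 kb, 0.0201% held at least 4 and 15.1% at least 1. In the other direction, 6 of the 23 regions at 0 h had no counterpart at 1 h (26.1%, interval 10.2% to 48.4%), against 34.6% of the whole 0 h list. They were 1 in the Btg2 window, 2 in the Dusp1 window and 3 in the Gadd45b window.

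Column support divides these regions further. Of the 18 regions at 1 h with centres in both columns, 2 had no 0 h counterpart, against 0.435% of all such 1 h regions. Both lay in the Btg2 window. Of the 9 regions at 1 h with 1 centre, 6 had no counterpart, against 14.3% of all single-column 1 h regions. All 6 rested on the first column of the 1 h list, the column with more centres (114659, against 74386 in the second). That column supplied 86.5% of all single-column regions at 1 h, and its part in the result was not tested. Leaving out a column drops only the regions whose sole centre it holds, so counts without it restate the column support. Without the first column of the 1 h list the Btg2 window had an excess of 1 region at 1 h. Dusp1 then had 2 fewer regions at 1 h than at 0 h. The Dusp1 and Gadd45b windows then had 0 regions absent at 0 h. Without the first column of the 0 h list, Gadd45b had 1 region more at 1 h than at 0 h. Of the 17 regions at 0 h with both centres, 3 had no counterpart at 1 h, against 15.1% of all such 0 h regions. Of the 6 with 1 centre, 3 had none, against 65.2%.

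**Figure D3:**
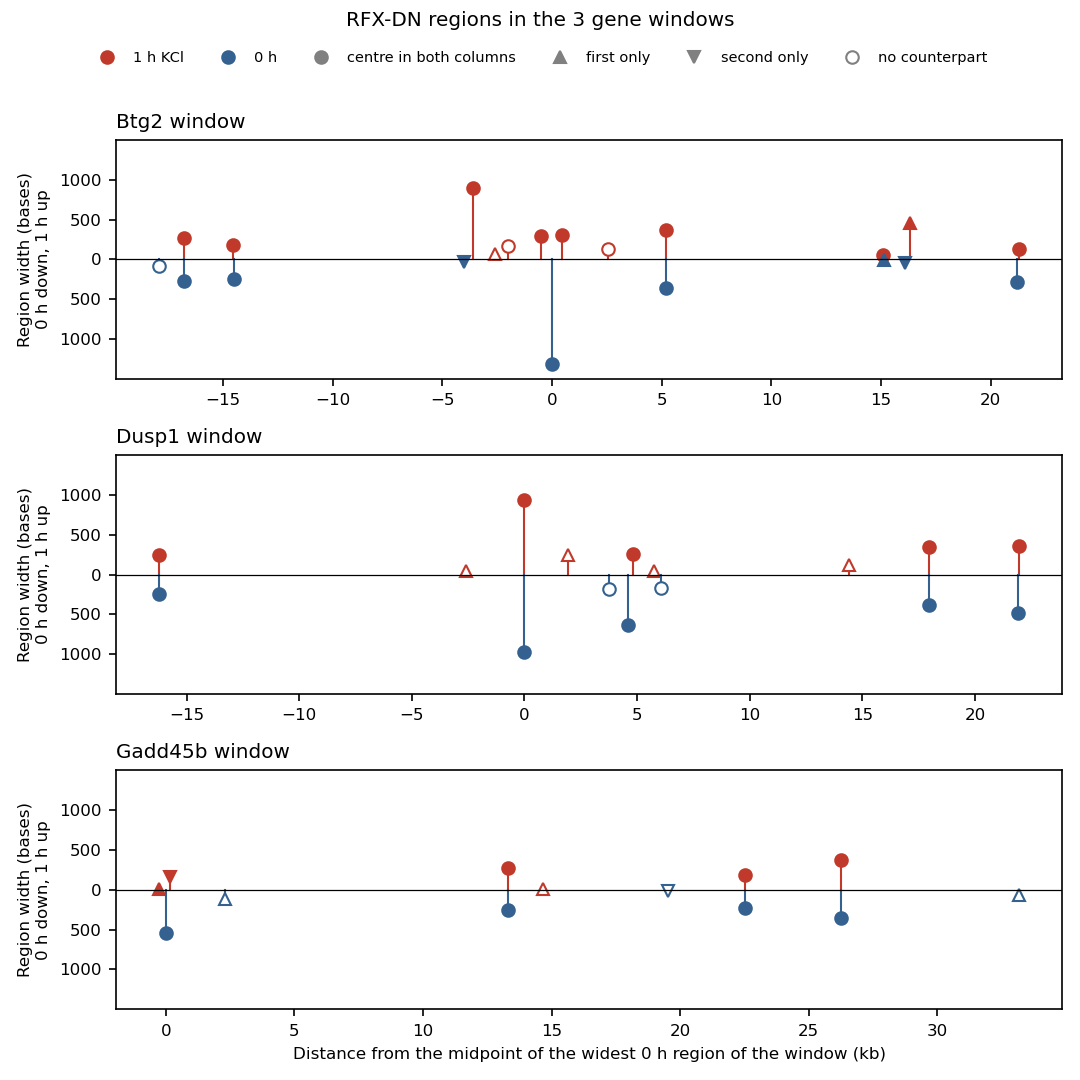
Every listed region of the 3 gene windows by its distance from the midpoint of the widest 0 h region (kb) and its width (bases), with 1 h upward in red and 0 h downward in blue. Marker shapes give column support and open markers regions with no counterpart at the other time; the Btg2 window has 3 open markers at 1 h and 1 at 0 h.

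Btg2, the antiproliferative gene, had its regions densest near the middle of the window. Within 5 kb on either side of the midpoint of the widest 0 h region, the 1 h list held 6 regions and the 0 h list 2. This stretch was picked after its values were seen. The 6 regions at 1 h ran from 135970370 to 135977040 on chromosome 1, a span of 6.67 kb, and 5 of them had centres in both columns. They covered 1870 bases at 1 h, against 1350 bases at 0 h.

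The widest Btg2 region at 0 h was 1320 bases wide (135973770 to 135975090), and 0.0820% of 0 h regions were as wide or wider. Its 2 centres lay 1020 bases apart, at 135974920 in the first column and 135973900 in the second. At 1 h the same stretch was listed as 2 regions. They lay between 135973780 and 135974070 (290 bases) and between 135974740 and 135975050 (310 bases). Each of them had centres in both columns, 10 bases apart. The 4 centres at 1 h thus fell in pairs at 135973890 and 135973900 and at 135974910 and 135974900, close to the 2 positions of the 0 h centres. Of all 0 h regions 0.505% met 2 or more 1 h regions, and of the 714 that were at least 1000 bases wide 26.9% did.

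The region at the low end of this run had the largest ratio of widths among the 15 window regions that met a single region of the other list. It was 900 bases wide at 1 h (135970370 to 135971270), against 30 bases at 0 h (135970420 to 135970450), a ratio of 30.0. At 1 h it had centres in both columns, 540 bases apart, whereas at 0 h it had a second-column centre only. Among the 112001 pairs of regions that met one to one in the 2 lists, 3 pairs (0.00268%) had a ratio of at least 30.0, this pair included. The median 0 h width of all these pairs was 260 bases, and 94.6% of 0 h regions were at least 30 bases wide. The pairs were not matched for width at 0 h. This share thus does not compare the region with others as narrow at 0 h. The second-column centres lay at 135970430 at 1 h and at 135970425 at 0 h. The first-column centre at 1 h, at 135970970, lay outside the 0 h region.

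Among these stood the 1 h regions that 0 h lacked. A region of 170 bases (135972340 to 135972510) had both of its centres at 135972410. Its nearest 0 h region was 1260 bases away. A region of 130 bases (135976910 to 135977040) had centres 10 bases apart and lay 1820 bases from the nearest 0 h region. The third, of 70 bases (135971810 to 135971880), had a first-column centre only.

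**Figure D4:**
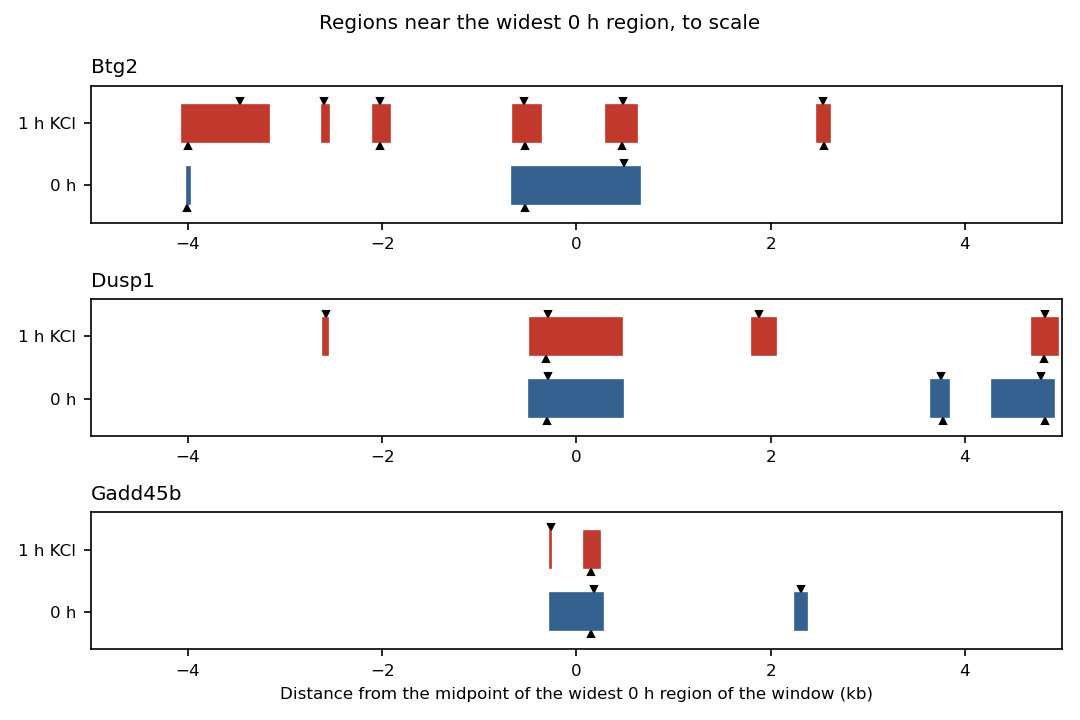
Regions within 5 kb of the midpoint of the widest 0 h region of each window, drawn to scale, with 1 h above 0 h. Triangles above a bar are first-column centres and triangles below it second-column centres; at Btg2 6 regions at 1 h stand over 2 at 0 h.

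Elsewhere in the Btg2 window 6 sites were listed at both times. The region from 135957500 to 135957770 had a width of 270 bases in both lists. The one from 135979450 to 135979820 measured 370 bases at 1 h, and its 0 h counterpart 360. Narrower 1 h regions were found at 135959810 (180 bases at 1 h, 250 at 0 h) and at 135995660 (130 bases at 1 h, 290 at 0 h). Wider ones were found at 135989500 (60 bases at 1 h, 10 at 0 h) and at 135990510 (460 bases at 1 h, 50 at 0 h). The region at 135990510 had only a first-column centre at 1 h and only a second-column centre at 0 h, so no column pair supports it in either list. The single 0 h region without a counterpart was 80 bases wide (135956480 to 135956560) and had both centres. The base coverage of the Btg2 window was 3340 bases at 1 h (6.68%), in regions of 278 bases on average. At 0 h it was 2660 bases (5.32%), in regions of 296 bases on average.

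Dusp1, the MAP kinase phosphatase gene, had as its main feature a broad region that hardly differed between the times. At 1 h it spanned 940 bases of chromosome 17 (26639970 to 26640910), against 970 bases at 0 h (26639960 to 26640930). As wide or wider were 0.448% of regions at 1 h and 0.480% at 0 h. Its first-column centre was at 26640150 in both lists, and its second-column centre at 26640130 at 1 h and 26640140 at 0 h.

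All 5 shared Dusp1 regions were narrower at 1 h, and all 5 had centres in both columns in both lists. Over all one-to-one pairs, 71.0% were narrower at 1 h and 20.4% wider. The most narrowed Dusp1 region was 260 bases wide at 1 h (26645140 to 26645400), against 640 bases at 0 h (26644720 to 26645360). A ratio of widths that low, 0.406, or lower was found in 10.3% of pairs. At the right of the window a region of 360 bases at 1 h (26662220 to 26662580) matched one of 480 bases at 0 h. The other 2 measured 240 and 350 bases at 1 h, against 250 and 380 at 0 h.

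The Dusp1 regions found at 1 h alone were 50, 250, 40 and 120 bases wide. The widest of them ran from 26642250 to 26642500 and lay 1320 bases from the nearest 0 h region. The one of 40 bases (26646180 to 26646220) stood 190 bases from a 0 h region of 170 bases (26646410 to 26646580) that had no 1 h counterpart. The closest centres of these 2 regions were less than 250 bases apart. The other 0 h region without a counterpart ran from 26644100 to 26644280 and had both centres. Bases covered in the Dusp1 window numbered 2610 at 1 h (5.80%) and 3070 at 0 h (6.82%), so that fewer bases were covered at 1 h by more regions. Their mean width was 290 bases at 1 h and 439 at 0 h.

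The window of Gadd45b, the stress-response gene, showed the lowest coverage of the 3 at both times. It came to 1000 bases at 1 h (2.22%) and 1580 bases at 0 h (3.51%), in regions of 167 bases on average at 1 h and 226 at 0 h. At 3 sites a region with both centres was listed at both times. Their widths were 270, 180 and 370 at 1 h, against 260, 230 and 350 at 0 h, in bases. The first of them ran from 80394040 to 80394310 on chromosome 10 at 1 h, began 10 bases later at 0 h, and had all 4 of its centres at 80394160. The last had centres at 80407150 at 1 h and at 80407140 at 0 h, in both columns.

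The widest Gadd45b region at 0 h was listed at 1 h as 2 regions, each with a centre in 1 column. Both columns thus still had a centre within its 0 h limits, but not in the same region. At 1 h its place held a region of 10 bases (80380620 to 80380630) with a first-column centre and one of 160 bases (80380970 to 80381130) with a second-column centre. At 0 h it was 1 region of 540 bases (80380620 to 80381160) with centres in both columns, 30 bases apart. The second-column centre was at 80381040 at both times. The single 1 h region without a counterpart was 10 bases wide, the least width of the lists. The 3 such regions at 0 h were 120, 10 and 70 bases wide and had 1 centre each.

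Widths of the shared regions can be compared over the 3 genes. Of the 15 regions that met one to one, 6 were wider at 1 h, 8 narrower and 1 equal, with a median difference of -10 bases (1 h minus 0 h). Over all 112001 such pairs the median difference was -30 bases, with median widths of 220 bases at 1 h and 260 at 0 h. The wider ones were 4 of 7 at Btg2, 0 of 5 at Dusp1 and 2 of 3 at Gadd45b. The 2 wider Gadd45b regions differed by 10 and 20 bases. At Btg2 the differences of the wider regions were 870, 410, 50 and 10 bases. The 3 largest of these belonged to regions that had had 1 centre at 0 h. Both columns gave a centre at 1 h for 2 of these 3, a change seen in 8.53% of all one-to-one pairs that had 1 centre at 0 h. This counts a centre anywhere in the listed region. In the region of 900 bases the 1 h centres lay 540 bases apart, and only the second-column centre fell inside the 0 h region. Support of that 0 h site by both columns at 1 h is therefore not shown.

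**Figure D5:**
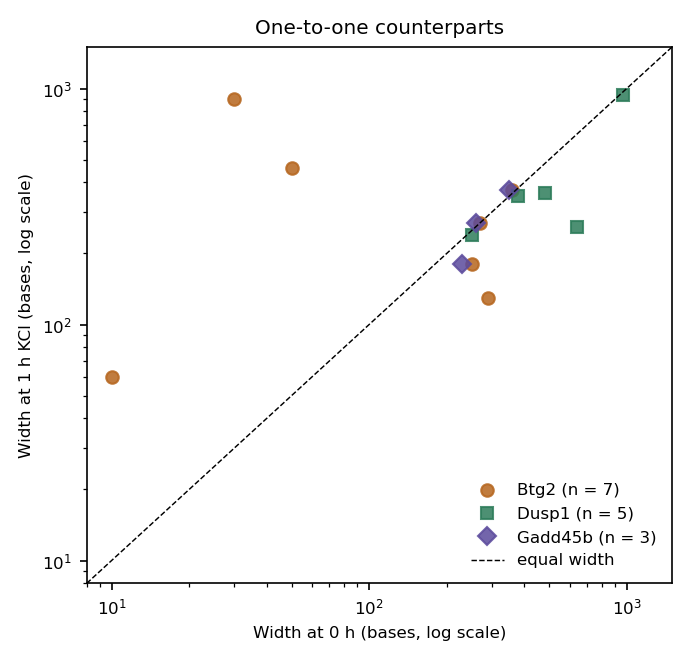
Width at 1 h KCl against width at 0 h (bases, log scales) for the 15 regions of the gene windows that met one to one, by gene. The dashed line marks equal width; 3 Btg2 regions of 10 to 50 bases at 0 h lie far above it, and all 5 Dusp1 regions lie below it.

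The window edges cut no region. The nearest 1 h regions outside the Btg2 window were 9.83 kb before and 9.61 kb after it, and the nearest 0 h regions 9.79 kb and 9.60 kb away. The Dusp1 window starts 0.350 kb after a 1 h region of 90 bases and 0.320 kb after a 0 h region of 120 bases (26619560 to 26619680), which were not counted. Its first region inside the edge was 240 bases wide at 1 h and 250 at 0 h. At the far end of the Dusp1 window the next region lay 17.6 kb outside at 1 h and 5.20 kb outside at 0 h. At Gadd45b the nearest regions outside lay 6.09 kb before and 3.95 kb after the window at 1 h, and 6.05 kb and 3.95 kb at 0 h. The last 0 h region inside stood 0.900 kb from the edge.

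The second comparison set the gene windows against the WT list. None of its 43 regions fell in a window, nor in windows lengthened by 10 kb at each end. The WT region nearest to Gadd45b lay 0.998 Mb away (79371620 to 79371970), the one nearest to Dusp1 22.0 Mb and the one nearest to Btg2 90.9 Mb. Each of the 3 chromosomes held 2 WT regions. The depth of the WT libraries is unknown, and the labels leave unclear whether these neurons carried the tagged construct, so nothing about binding at the 3 genes is read from the WT list.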

How the data were processed

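The values used are 3 lists of regions that the authors deposited, 1 for each pair of ChIP-seq libraries, giving for each region its chromosome and its limits. Per the file headers, 2 more columns, c1 and c2, accompany each region, and from their values they hold a position inside the region or -1. Per the submitters' processing notes, Bowtie and mm9 were used. Not given in the sources used here are how peaks were called, at what threshold, how libraries were merged, and whether positions start at 0 or 1. A narrow or single-column region may therefore lie near a threshold that is unknown here. The 2 input libraries were not used here.

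Regions overlapping a gene window by at least 1 base were members. Counterparts, widths, covered bases and tiles were computed with Python 3.11.15 and numpy 2.4.6. Tiles start at position 0 of each chromosome. Exact intervals used scipy 1.17.1 at a level of 95%. The overlap code recovered planted overlaps in simulated lists. The members, lists and motifs were chosen with earlier results of these data known. By the naming rule the 3 members are the genes named with values. Promoters and neighbouring genes were matched by symbol, for 3 of 3 genes. Alternatives were another overlap rule, both-column regions, merging, other window lengths and leaving out a column.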

Additional observations from a re-analysis of the deposited data

How the results depend on the processing

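A count, a difference or a width was taken to be stable within 1.5 times, and a share within its exact interval. That interval treats regions as independent, so a share inside it is not shown to be unchanged. The difference in region number (1 h minus 0 h) was 3 at Btg2, and without 1 replicate column it was 1 to 5, lowest without the first column of the 1 h list and highest without the second column of the 0 h list. At Dusp1 it was 2, but -2 with both-column regions alone, 1 in windows lengthened by 10 kb, and -2 to 2 without 1 column, lowest without the first column of the 1 h list. At Gadd45b it was -1, with -2 after merging regions within 500 bases, 0 in windows shortened by 10 kb, and -3 to 1 without 1 column, highest without the first column of the 0 h list. The share of window regions with a counterpart was 70.4% at 1 h and 73.9% at 0 h. Windows shortened by 10 kb gave 57.9% and 71.4%, and lengthened windows 75.8% and 76.7%. Overlap of at least 50% of both regions gave 37.0% and 43.5%, against 76.8% and 54.2% of the whole lists. Without 1 column the 1 h share was 63.0% to 89.5%, highest without the first column of the 1 h list, where the whole list gave 97.9%. Leaving out a column dropped only the regions whose sole centre it held, and the others kept their combined limits. Widths without 1 column are therefore not widths from the other replicate. The median difference in width, -10 bases, was -30 with both-column regions alone, -20 after merging, 10 in shortened windows and -30 to -20 without 1 column. The causes of these changes were not tested. Without the depth of the libraries, a detection limit could not be computed.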
